A study of Mus musculus with 15 samples.

Results

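The response of microglia derived from mouse embryonic stem cells to transforming growth factor-β (TGF-β) was measured on 9 of the 15 arrays of a stimulation series, 3 from cells given TGF-β and 6 from untreated cells. The arrays were chosen by their labelled treatment alone, and all 8553 genes with a signal above background were compared. The cells came from C57BL/6 embryonic stem cells and grew in an N2-supplemented DMEM/F12 medium, and the TGF-β cultures received 50 ng/ml for 24 h. Biotin-labelled copies of the total RNA were hybridised to Illumina bead arrays, on which each probe reports the brightness of 1 transcript. The other 6 arrays, used here only for comparison, came from cells given interleukin-4 (IL-4, 100 U/ml, n = 3) or a mixture of 500 ng/ml bacterial lipopolysaccharide (LPS) and 20 ng/ml interferon-γ (IFN-γ, n = 3), each for 24 h. All 4 groups share the same line of stem cells and the same medium. The untreated cells were not stimulated, and the labels give no time for them, so a matched 24 h culture is not known. The labels number the arrays within a group but do not say whether they stem from separate cultures, so the p-values rest on array-to-array spread alone, and that spread may be technical.

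TGF-β is secreted in a latent complex and becomes active when integrins, proteases or other factors release it. It binds a type II receptor, which phosphorylates a type I receptor, and the type I receptor phosphorylates Smad2 and Smad3, which enter the nucleus with Smad4. Ski, SnoN (encoded by Skil) and Smad7 restrain the pathway, and several of these inhibitors are themselves induced by it. In the mouse brain, TGF-β is known as a factor that microglia, the resident macrophages, need to hold their adult identity.

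All 11 macrophage markers with a named probe, among them Csf1r, Aif1, Adgre1, Itgam and Ptprc, were above background on all 9 arrays, and their summed linear signal was 38289 to 40633 with TGF-β and 34655 to 38104 without. None of 8 neuronal markers was ever above background, and of 9 stem cell markers with a probe only Pou5f1 was, with summed signals of 252.2 to 269.1 and 235.4 to 272.8. Of 8 endothelial markers only Vwf was detected, and the summed signal of that list was 888.4 to 912.9 with TGF-β against 414.1 to 442.8 without. Of 9 neutrophil markers only S100a8 and Cxcr2 were detected, with sums of 616.4 to 662.5 against 307.1 to 382.8, while Mpo, Elane, Ltf, Ngp, Camp, S100a9 and Csf3r were never above background. S100a8 read 8.55, 8.69 and 8.41 on the TGF-β arrays and 6.66 to 6.94 on the untreated arrays in log2 units, and Vwf 9.50, 9.40 and 9.41 and 7.66 to 7.86, both without overlap. Of 8 astrocyte markers 3 were detected and Gfap, Aqp4 and Gja1 never were, with sums of 4613 to 5121 against 3909 to 4436, and of 8 osteoclast markers 3 were detected, 2 of them called higher, with sums of 32200 to 33974 against 28646 to 33420. Of 11 fibroblast markers only Acta2 was detected, with sums of 304.8 to 314.6 against 330.1 to 354.4. The sums of the B cell, mast cell and oligodendrocyte lists overlapped between the groups, and that of the T and NK cell list was 177.0 to 193.1 against 191.3 to 216.7. S100a8 and Vwf were chosen after their values were seen, and the part of these lists in other results was not tested. The microglial genes P2ry12, Siglech, Fcrls and Gpr34 were below background on all 9 arrays, as were the housekeeping genes Canx and Rhoa, so a dim probe does not show that a gene is silent. The 9 arrays were similar in sensitivity, each detecting 13908 to 14789 probes, and their median unprocessed signal was 130.3 to 153.9.

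Between the TGF-β and untreated arrays a large part of the measured transcriptome differed by small amounts and a short list of genes by large ones. Levels are normalized log2 signals, changes are log2 differences of group means (TGF-β minus untreated) ± standard error, and a gene was called when its adjusted p was under 0.05. Of 8553 genes, 3318 (38.8%) were called, 1688 of them higher (19.7%) and 1630 lower (19.1%), with 5235 not called. The counts of every gene list below are to be read beside the shares of 19.7% and 19.1%. The median fold of the called genes was 1.35, and 2368 of them changed by less than 1.5-fold. At least 2-fold changes were called for 234 genes (2.74%), of which 171 rose (2.00%) and 63 fell (0.737%). Changes of 4-fold and over numbered 26, with 21 higher and 5 lower. For 3313 genes (38.7%) the 3 TGF-β arrays did not overlap the 6 untreated arrays, 1695 above them (19.8%) and 1618 below (18.9%), and 2914 of these were also called.

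The split between rises and falls rests on how the arrays are scaled to each other. With arrays scaled by their medians in place of quantile normalization, 2593 genes were called, 522 higher and 2071 lower, so 20.1% of calls were rises against 50.9% in the quantile-normalized data, and the median change of all genes moved from -0.00 to -0.19. Background correction sets the size of changes in dim genes. Without it 54 of 140 called genes named here changed by less than the printed value divided by 1.5, among them Itgb5 (2.68 in place of 4.30), Egr3 (0.72 in place of 1.58), Col4a1 (0.55 in place of 1.06), Slc10a6 (-1.02 in place of -1.93) and Pilrb1 (-0.82 in place of -1.61), and all 140 kept their call. Small rises below also depend on the scaling, and genes given with a value that lose their call are pointed out. Counts of rises in the lists can fall under median scaling too, and not every list below gives that count. It went from 6 to 3 for matrix proteases and inhibitors and from 7 to 5 for integrins and for cytokine receptors. It went from 4 to 2 for alternative activation genes and from 3 to 1 for arrest genes, while matrix proteins kept 3. The arrays came from 3 bead chips, and 98.7% of the called genes moved in the same direction within all 3. In bulk RNA, fewer cells of a type and less RNA per cell cannot be told apart.

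**Figure D1:**
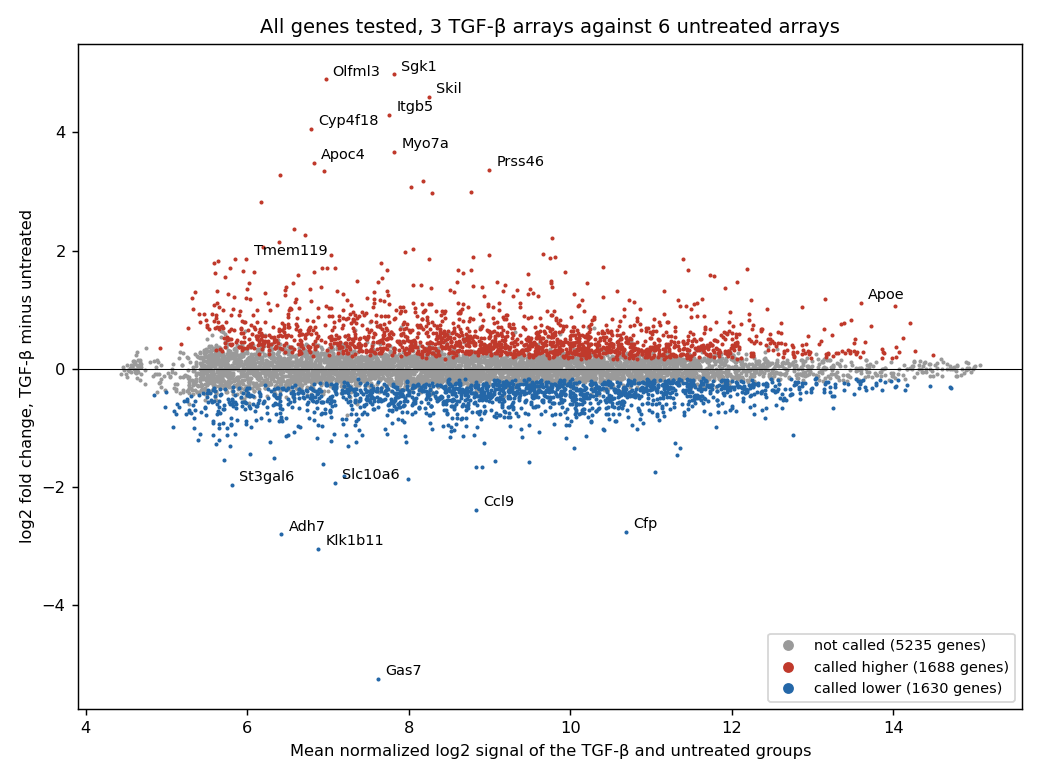
Change of every tested gene (vertical axis, log2 fold change, TGF-β minus untreated) against its mean level in both groups (horizontal axis, normalized log2 signal), with 1688 genes called higher in red, 1630 called lower in blue and 5235 not called in grey. Sgk1, Olfml3 and Skil stand highest and Gas7 lowest, and most called genes lie close to 0.

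Among TGF-β ligands, latency proteins and activators, 2 of 4 tested genes rose and none fell. Furin, a protease that cleaves the TGF-β precursor, read 13.01, 13.07 and 13.02 on the TGF-β arrays against a lowest, median and highest of 11.26, 11.35 and 11.44 on the untreated arrays. All 3 TGF-β arrays lay above the untreated ones, and the change was 1.69 ± 0.15 (limma, adjusted p = 4.76e-07). The integrin subunit gene Itgav, part of integrins that release latent TGF-β, read 8.89, 8.66 and 8.86 against 7.54, 7.69 and 7.90. Its groups did not overlap and it rose by 1.10 ± 0.16 (adjusted p = 8.35e-05), although a dimmer probe of the gene was not called. Tgfb1, the ligand itself, overlapped between the groups, with 9.76, 9.54 and 9.94 against 9.54, 9.81 and 9.90 and a change of -0.03 ± 0.12 (adjusted p = 0.876). Nrros, which tethers latent TGF-β on microglia, differed by -0.14 ± 0.12 and was not called (adjusted p = 0.380). Tgfb2, Tgfb3 and the latent binding protein genes Ltbp2 and Ltbp3 were below background on all 9 arrays.

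Of 7 receptors of the TGF-β family, 5 rose and 1 fell (19.7% and 19.1% of all genes). Tgfbr1, the type I receptor for TGF-β, read 11.59, 11.63 and 11.57 against 10.55, 10.84 and 10.93, with no overlap, and rose by 0.79 ± 0.08 (adjusted p = 2.91e-06). Tgfbr2, the type II receptor, read 11.37, 11.58 and 11.36 against 10.80, 10.84 and 11.00, again without overlap, a change of 0.57 ± 0.07 (adjusted p = 2.41e-05). Both receptor subunits for the ligand were thus higher after 24 h of exposure. Acvr1 (0.51 ± 0.11), Bmpr2 (0.51 ± 0.09) and Eng (0.44 ± 0.11), which belong to the bone morphogenetic protein arm or assist it, rose as well. Under median scaling only the call of Tgfbr1 held, and the adjusted p was 0.0785 for Tgfbr2, 0.197 for Acvr1, 0.228 for Bmpr2 and 0.120 for Eng. Bmpr1a, a type I receptor for bone morphogenetic proteins, read 8.89, 8.74 and 8.92 against 9.07, 9.28 and 9.39 and fell by 0.42, while its other probe gave -0.01 and was not called.

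Of 8 Smads and nuclear partners, 2 were called higher and 1 lower. Smad3, a mediator of TGF-β signals, read 9.03, 8.96 and 9.01 on the treated arrays and 9.02, 9.06 and 9.28 on the untreated arrays. These ranges overlapped, and the change was -0.11 ± 0.08 (adjusted p = 0.306, or -0.32 and 0.0497 under median scaling). Trim33, a nuclear partner of activated Smads, read 10.74, 10.96 and 10.63 against 10.03, 10.09 and 10.33. It rose by 0.66 ± 0.09 without overlap, and its 3 other probes gave 0.19, 0.19 and 0.38, the last of which was not called. The single fall, of Smad2 (-0.26 ± 0.09, adjusted p = 0.0343), lost its call without TGF-β replicate 1, 2 or 3 (adjusted p = 0.135, 0.0553 and 0.0710) and without untreated replicate 1 or 2 (0.0602 and 0.0672). The median of the list, 0.10, became -0.11 under median scaling. The count of rises was 1 without TGF-β replicate 2 or 3 or any of untreated replicates 2 to 6, and the count of falls ranged from 0 to 2 over the arrays left out (2 without untreated replicate 3). Smad5, a mediator of bone morphogenetic protein signals, differed by -0.01 ± 0.13 and was not called (adjusted p = 0.946), whereas its dimmer probe was called lower at -0.49 and the mean of both at -0.25. Smad4 was not analysed here, and Smad6 and Smad7 were below background on all 9 arrays.

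Among feedback inhibitors, 3 of 6 tested members were higher and 1 lower, with a median change of 0.33. Skil, which encodes SnoN, read 10.54, 10.55 and 10.57 on the 3 TGF-β arrays against a lowest, median and highest of 5.18, 6.02 and 6.36 without it. Every treated array exceeded every untreated array, of which 5 of 6 were above background, with a rise of 4.61 ± 0.19 (adjusted p = 1.22e-10), and its other probe was called higher too. Ski, the related repressor of Smads, read 9.05, 8.78 and 9.04 against 7.40, 7.62 and 7.74 and rose by 1.36 ± 0.09 (adjusted p = 2.32e-08), also without overlap. Tgif1, a homeodomain repressor that binds Smads, read 10.62, 10.79 and 10.67 against 9.99, 10.10 and 10.18 and rose by 0.61 ± 0.13 (adjusted p = 0.00179, or 0.0767 under median scaling). Fkbp1a, whose protein binds the type I receptor and holds it inactive, fell by 0.24 (adjusted p = 0.00883).

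Of 14 measured genes known as TGF-β targets in other cell types, 11 rose and none fell (19.7% and 19.1% of all genes), with a median change of 0.71 against -0.00 over all genes. Under median scaling 8 rose and the median was 0.55, and without background correction the median was 0.45. Sgk1, a serum- and glucocorticoid-regulated kinase, read 10.28, 10.29 and 10.37 on the TGF-β arrays and was below background in untreated cells (5.04, 5.29 and 5.77). The groups were far apart, and the rise was at least 24.5-fold (adjusted p = 2.84e-09). Id2, an inhibitor of basic helix-loop-helix factors, read 10.11, 9.88 and 9.90 against 7.27, 8.05 and 8.52 and rose by 1.93 ± 0.35. Snai1, a zinc finger repressor above background on 2 of 6 untreated arrays, read 6.67, 6.91 and 7.01 against 5.34, 5.64 and 5.74 and rose by 1.28 ± 0.23. Junb, an AP-1 subunit, read 11.30, 11.03 and 11.19 against 10.02, 10.20 and 10.22 and rose by 1.02 ± 0.14, without overlap for any of these 3 genes. Spsb1, whose protein promotes turnover of the type II receptor, went from below background to 6.23, 6.22 and 6.38, at least 1.5-fold. Sox4 (0.93 ± 0.15) and Bhlhe40 (0.78 ± 0.13), both transcription factors, rose too. Id1 (0.47 ± 0.10, adjusted p = 0.00197), better known as a target of bone morphogenetic proteins, lost its call under median scaling (adjusted p = 0.0534). The cell cycle inhibitor gene Cdkn1a, a target in epithelial cells, read 11.70, 11.77 and 11.68 against 11.61, 11.79 and 11.93 and was not called (adjusted p = 0.665). Tgfbi, Klf10 and Ccn2 were below background.

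**Figure D2:**
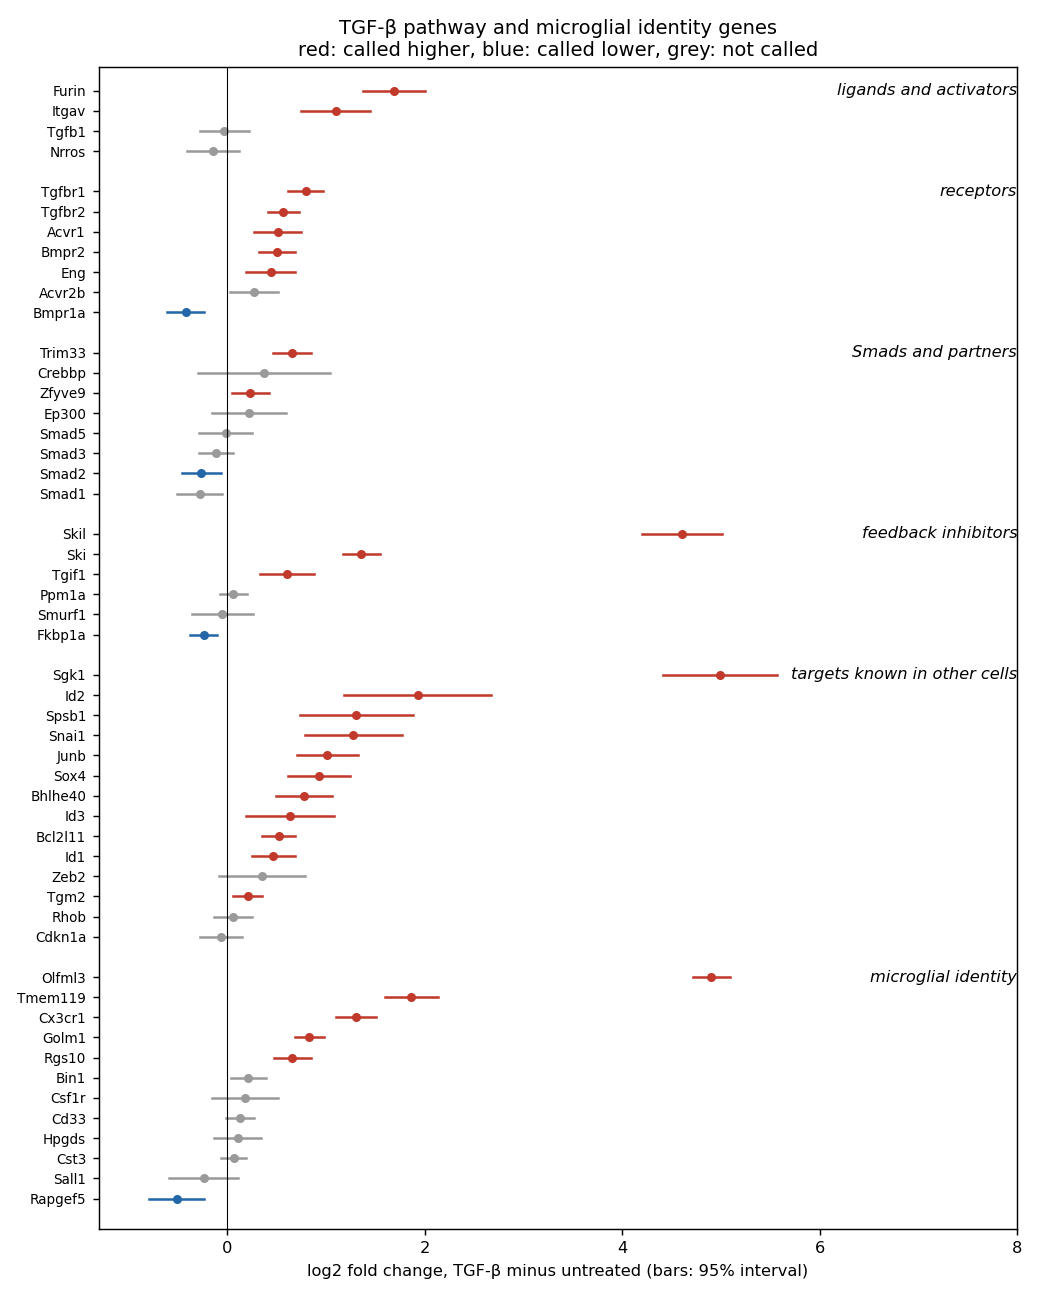
Log2 fold change, TGF-β minus untreated (horizontal axis, points with 95% intervals), of every tested member of the TGF-β pathway by role and of the microglial identity list, in red where called higher, blue where called lower and grey otherwise. Skil, Sgk1 and Olfml3 lie between 4.61 and 4.99, while Smad2, Smad3 and Smad5 lie between -0.26 and -0.01.

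The 15 largest rises, chosen by their change among called genes without overlap, spanned secreted proteins, surface receptors and lipid genes. Choosing genes without overlap fixes their direction within each chip, where the smallest difference was 2.67. All 15 kept their call in every alternative run. Olfml3, a secreted glycoprotein known as a microglial gene, read 9.48, 9.29 and 9.50 against 4.43, 4.49 and 4.63. It was below background without TGF-β, a rise of at least 13.2-fold. Since only the TGF-β arrays brought it into the test, no p-value is given. Without background correction the change of Olfml3 was 2.64 in place of 4.90. Itgb5, which pairs with the αv subunit in an adhesion and clearance receptor, read 9.73, 10.15 and 9.84 against 5.24, 5.65 and 5.88 and rose by 4.30 ± 0.16. Its treated arrays lay far above the untreated ones, of which 3 of 6 were above background. Myo7a, an unconventional myosin, read 9.71, 9.41 and 9.85 against 5.80, 6.03 and 6.15 and rose by 3.67 ± 0.14. Siglec1, a sialic acid-binding receptor of macrophages, read 9.61, 9.59 and 9.48 against 6.22, 6.55 and 6.65 and rose by 3.08 ± 0.15. P2ry6, a receptor for uridine diphosphate that takes part in phagocytosis by microglia, read 9.77, 9.87 and 9.70 against 6.60, 6.81 and 6.92 and rose by 2.98 ± 0.08. None of these 4 overlapped.

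A further 5 genes of this set were below background on all untreated arrays, so that their rises are lower bounds. Cyp4f18, a cytochrome P450 that oxidises leukotriene B4, read 8.94, 8.78 and 8.74 with TGF-β, at least 8.71-fold higher. Bdh2, a cytosolic dehydrogenase, read 8.63, 8.74 and 8.51 and was at least 7.62-fold higher. The apolipoprotein gene Apoc4 read 8.71, 8.42 and 8.58, at least 7.33-fold higher. These are secreted or metabolic proteins, and the next is a membrane receptor. Htr2b, a serotonin receptor found on mouse microglia, read 8.22, 7.96 and 7.96 and rose at least 5.1-fold, and Serpina12, a serine protease inhibitor, read 7.53, 7.58 and 7.65 and rose at least 3.71-fold. The remaining members were detected without TGF-β as well. Prss46, a serine protease gene, rose by 3.36 ± 0.16, Tent5c, a poly(A) polymerase gene, by 3.19 ± 0.21, and Apoc1 by 2.98 ± 0.08.

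The promoters of these genes are shown because the members rise together and because activated Smad3 and Smad4 are known to bind the letters CAGACA, or TGTCTG on the other strand. Windows of 250 bases before to 50 bases after a start were taken from RefSeq (GRCm38.p6) for the 15 genes and for the feedback inhibitors Ski and Tgif1. Of these 17 genes 13 had an entry, and 6 of the 13 held the motif, against 21.0% of all 32851 windows and 17.9% of the 7066 tested genes with an entry. None held the 8-letter palindrome GTCTAGAC, which 0.213% of windows hold and which contains neither form of the first motif. A match is a description of letters and not a binding site. The windows below are printed on the strand of the gene, 5′ to 3′, with CAGACA or TGTCTG in capitals, and where a gene has several starts the window with the most matches is shown (6 starts for Sgk1, 5 for Tgif1). Sgk1 lies at chr10:21978422-21978721 (+) with 3 matches, 2 of which share bases, at positions -155 to 26 from the start. Apoc4 lies at chr7:19681411-19681710 (-), Prss46 at chr9:110844256-110844555 (+), Htr2b at chr1:86111931-86112230 (-), Serpina12 at chr12:104044394-104044693 (-) and Tgif1 at chr17:70853483-70853782 (-). Their single matches start at positions -93, -222, -47, -135 and -201.
Sgk1: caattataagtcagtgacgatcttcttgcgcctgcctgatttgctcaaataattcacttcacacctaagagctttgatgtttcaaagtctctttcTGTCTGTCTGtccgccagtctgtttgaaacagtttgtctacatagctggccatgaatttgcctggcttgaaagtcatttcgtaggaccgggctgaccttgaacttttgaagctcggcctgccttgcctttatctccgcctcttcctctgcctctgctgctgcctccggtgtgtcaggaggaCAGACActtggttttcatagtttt
Apoc4: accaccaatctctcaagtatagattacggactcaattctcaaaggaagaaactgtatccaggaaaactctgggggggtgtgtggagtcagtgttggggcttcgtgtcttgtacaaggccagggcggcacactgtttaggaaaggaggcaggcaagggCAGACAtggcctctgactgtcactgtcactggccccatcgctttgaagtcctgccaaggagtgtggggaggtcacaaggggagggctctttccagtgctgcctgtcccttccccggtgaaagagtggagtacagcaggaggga
Prss46: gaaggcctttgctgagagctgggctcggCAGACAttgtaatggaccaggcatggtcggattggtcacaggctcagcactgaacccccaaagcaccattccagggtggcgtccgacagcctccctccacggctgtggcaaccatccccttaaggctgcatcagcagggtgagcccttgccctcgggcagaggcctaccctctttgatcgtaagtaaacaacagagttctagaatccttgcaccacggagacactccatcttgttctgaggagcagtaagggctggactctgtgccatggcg
Htr2b: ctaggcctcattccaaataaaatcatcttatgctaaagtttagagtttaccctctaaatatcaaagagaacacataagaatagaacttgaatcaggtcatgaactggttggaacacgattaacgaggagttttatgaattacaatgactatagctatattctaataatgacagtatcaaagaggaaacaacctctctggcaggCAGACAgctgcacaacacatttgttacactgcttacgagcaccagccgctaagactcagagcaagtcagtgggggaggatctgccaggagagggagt
Serpina12: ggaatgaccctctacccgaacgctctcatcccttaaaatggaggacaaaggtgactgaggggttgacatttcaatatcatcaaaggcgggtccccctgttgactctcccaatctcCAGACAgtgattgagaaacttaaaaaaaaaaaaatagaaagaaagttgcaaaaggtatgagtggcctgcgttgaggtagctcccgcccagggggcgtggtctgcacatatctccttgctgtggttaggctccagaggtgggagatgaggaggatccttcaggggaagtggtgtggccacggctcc
Tgif1: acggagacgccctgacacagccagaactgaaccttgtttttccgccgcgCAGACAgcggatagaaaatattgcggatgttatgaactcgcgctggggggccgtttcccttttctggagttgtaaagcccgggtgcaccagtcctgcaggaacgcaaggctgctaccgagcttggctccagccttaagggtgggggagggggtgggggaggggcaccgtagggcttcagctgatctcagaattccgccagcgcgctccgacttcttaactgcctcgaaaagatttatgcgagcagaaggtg

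**Figure D3:**
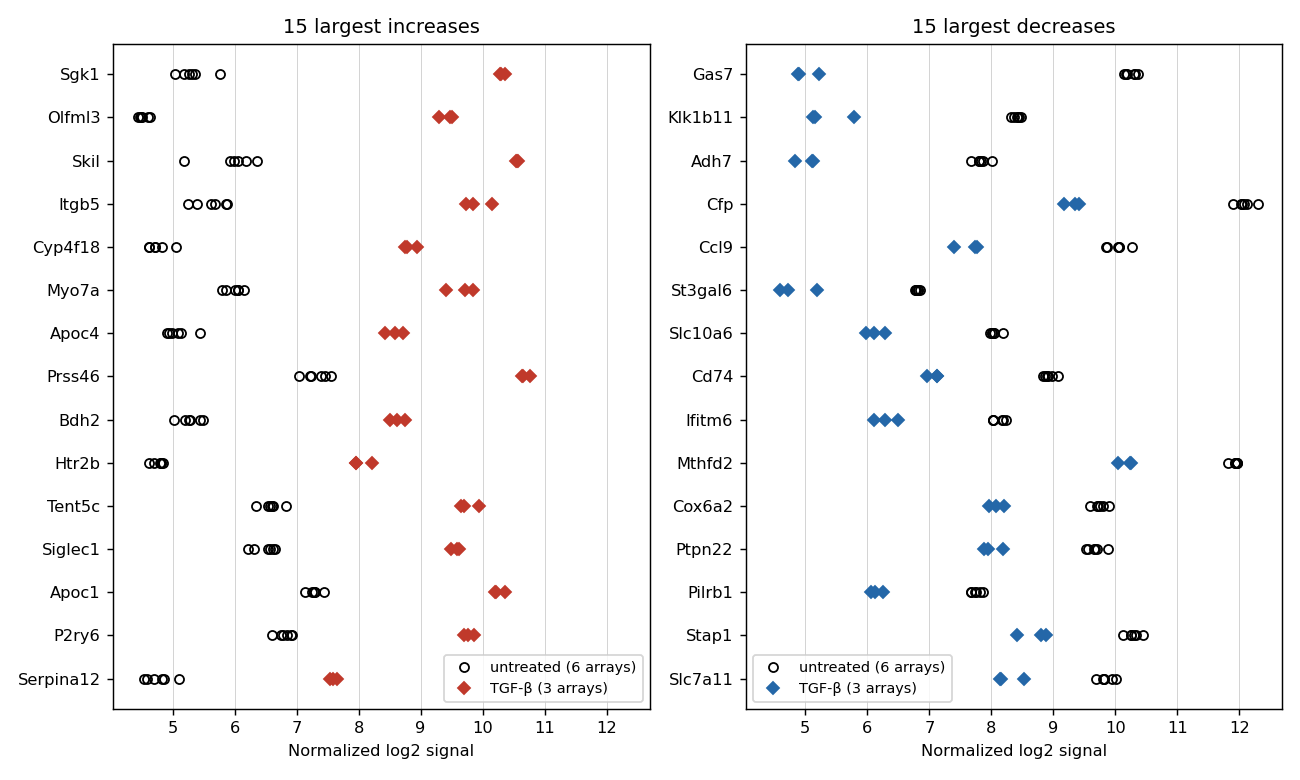
Normalized log2 signal (horizontal axis) of the 15 genes with the largest rises (left) and the 15 with the largest falls (right) on each array, with open circles for the 6 untreated arrays and diamonds for the 3 TGF-β arrays. In all 30 genes the diamonds stand apart from the circles, which the rule that chose them requires.

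Several of the genes that mark microglia in the adult mouse brain rose, but the list as a whole did not move together. Of 12 tested identity genes 5 rose and 1 fell, and the median change of 0.20 became -0.03 under median scaling, with 5 still higher. Olfml3 and Tmem119 were below background in every other group, so they were tested only because the TGF-β arrays were above background. Cx3cr1 was below background on all untreated arrays too, and the count of rises is favoured by such genes. Tmem119, a membrane protein used as a microglial marker, read 6.96, 6.84 and 6.97 with TGF-β. It was below background on every untreated array (4.79, 5.06 and 5.34), a rise of at least 2.34-fold. Since only the TGF-β arrays brought it into the test, no p-value is given. Without background correction the change of Tmem119 was 0.67 in place of 1.86. Cx3cr1, the fractalkine receptor, read 5.81, 6.26 and 5.95 and was below background without TGF-β (4.59, 4.68 and 4.88), at least 1.24-fold higher. Golm1, a Golgi membrane protein, read 11.39, 11.50 and 11.46 against 10.49, 10.61 and 10.73 and rose by 0.83 ± 0.07. No array overlapped in these 3 genes or in Rgs10, a regulator of G protein signalling (0.66 ± 0.09). Csf1r, the receptor that microglia need to survive, read 10.60, 10.83 and 10.85 against 10.45, 10.62 and 10.68 and was not called (adjusted p = 0.393). Sall1, a transcription factor of mature microglia, read 6.17, 5.93 and 5.77 against 5.83, 6.16 and 6.57, with overlapping groups and a change of -0.24 ± 0.16 (adjusted p = 0.276). Rapgef5, a guanine nucleotide exchange factor, fell by 0.51 (adjusted p = 0.00565). Of the other 18 listed genes 15 were above background on fewer than 3 arrays, and 3 were not analysed here.

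Of 16 transcription factors of macrophages and microglia 4 rose and 2 fell, beside 19.7% and 19.1% of all genes, and these small counts do not set the list apart. Egr2, a zinc finger factor, read 9.14, 9.32 and 9.06 against 7.004, 7.26 and 7.61 and rose by 1.85 ± 0.28 (adjusted p = 0.000104). Klf2, a Krüppel-like factor that restrains inflammation in myeloid cells, read 7.05, 7.22 and 7.30 against 8.08, 8.20 and 8.35 and fell by 1.03 (adjusted p = 0.000161), and neither gene overlapped. Cebpa rose by 0.67 ± 0.16, with 1 treated array (5.98) inside the untreated range of 5.44 to 6.07. Of 11 clearance receptors and partners 3 rose and 2 fell, also near those shares. Beside Itgb5, Mertk, a receptor for dying cells, read 8.55, 8.40 and 8.54 against 7.67, 7.72 and 8.11 and rose by 0.70 ± 0.18 (adjusted p = 0.00621). Trem2, a lipid-sensing receptor of microglia, read 12.82, 12.99 and 12.94 against 12.22, 12.26 and 12.44 and rose by 0.61 ± 0.09 (adjusted p = 8.03e-05). The mannose receptor gene Mrc1 read 12.27, 12.29 and 12.18 against 12.72, 12.87 and 12.99 and fell by 0.61. All 3 kept the groups apart. Of 18 genes of the disease-associated microglial state 7 rose (5 under median scaling) and 2 fell. The rises included Apoe (1.12 ± 0.10), Cd52 (0.97 ± 0.10, a dimmer probe not called), Ctsd (0.81 ± 0.13) and Cd9 (0.75 ± 0.08). The falls were those of Fabp5 and of Clec7a, which is described with the pattern recognition receptors. Gpnmb (-0.01 ± 0.07), Cst7 (-0.09 ± 0.08) and Lpl (-0.19 ± 0.08), chosen after their values were seen, were not called.

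The 15 largest falls included several immune genes. Their direction within each chip is again fixed by the choice without overlap, and the smallest difference there was -1.31. All 15 kept their call in every alternative run. Gas7, an actin-binding protein gene, read 10.14, 10.25 and 10.37 as lowest, median and highest without TGF-β and 5.23, 4.89 and 4.88 with it, below background on all 3 arrays. It fell at least 23.3-fold (adjusted p = 3.28e-15), and its 2 other probes were called lower too. Klk1b11, a kallikrein gene from a family of near-identical copies and so an uncertain assignment, was below background with TGF-β and at least 6.51-fold lower. Adh7, an alcohol dehydrogenase that also oxidises retinol, read 7.67, 7.82 and 8.01 without and 4.83, 5.11 and 5.12 with TGF-β, at least 4.36-fold lower and again below background with TGF-β. Cfp, the complement factor properdin, read 9.42, 9.35 and 9.17 against 11.89, 12.06 and 12.30 and fell by 2.76 (adjusted p = 4.22e-12). The chemokine gene Ccl9 read 7.77, 7.74 and 7.40 against 9.86, 10.05 and 10.27 and fell by 2.39. Slc10a6, a transporter of steroid sulfates, read 6.29, 6.10 and 5.97 against 7.99, 8.03 and 8.19 and fell by 1.93. None of these groups overlapped. St3gal6, a sialyltransferase gene, dropped below background (at least 2.14-fold lower). Ifitm6 (-1.82 ± 0.12), the phosphatase gene Ptpn22 (-1.66 ± 0.10), the paired receptor gene Pilrb1 (-1.61 ± 0.10), the adaptor gene Stap1 (-1.58 ± 0.10) and the muscle-type cytochrome oxidase subunit Cox6a2 (-1.66 ± 0.08) also fell. Cd74, Mthfd2 and Slc7a11, the remaining members, are described with their groups.

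Of 16 tested pro-inflammatory cytokines and chemokines 7 fell and 2 rose, with a median change of -0.31, which was the same under median scaling, -0.14 under cyclic loess scaling and -0.10 without background correction. Ccl4, a chemokine for monocytes and T cells, read 9.94, 9.95 and 9.78 against 10.81, 10.87 and 11.13 and fell by 1.03 (adjusted p = 9.20e-06). Ccl3, its close relative and chosen after its values were seen, read 10.69, 10.61 and 10.63 against 11.21, 11.36 and 11.58 and fell by 0.73 (adjusted p = 1.12e-05). Both kept the groups apart, and so did 2 dimmer genes. Il1b, the interleukin-1β gene, was called lower (adjusted p = 0.000664) but was above background on only 2 of 6 untreated arrays and on no treated array, so its size of change was not measured. Ccl5 dropped below background, at least 1.26-fold lower. Tnf moved the other way, with 9.27, 9.30 and 9.18 against 8.44, 8.52 and 8.74, no overlap and a rise of 0.70 ± 0.11 (adjusted p = 0.000222). Cxcl16, a chemokine held on the membrane, went from below background (4.93, 5.09 and 5.49) to 7.22, 7.20 and 7.25, at least 2.88-fold higher. Of 16 cytokine and chemokine receptors 7 rose and 1 fell, among them Cxcr4, the receptor for Cxcl12, with 10.49, 10.43 and 10.57 against 8.89, 9.03 and 9.15 and 1.48 ± 0.10. Il10ra, the receptor for interleukin-10, read 7.86, 7.98 and 7.86 against 6.72, 6.99 and 7.16 and rose by 0.91 ± 0.12. Neither receptor overlapped between groups.

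Of 20 pattern recognition receptors and adaptors 4 rose and 5 fell, near the 19.7% and 19.1% of all genes. Tlr2, a receptor for bacterial lipoproteins, read 12.32, 12.18 and 12.38 against 10.40, 10.70 and 10.81 and rose by 1.67 ± 0.12 (adjusted p = 6.87e-08). Its partner Tlr1 went the opposite way, with 6.69, 6.999 and 6.87 against 7.77, 7.99 and 8.19 and a fall of 1.13 (adjusted p = 1.90e-06). Tlr4, the receptor for LPS, read 9.02, 9.17 and 9.01 against 9.71, 9.80 and 9.92 and fell by 0.75 (adjusted p = 0.00269). All 3 receptors kept the groups apart. The C-type lectin gene Clec4d read 9.54, 9.71 and 9.63 against 10.65, 10.76 and 10.91 and fell by 1.14, and Clec7a, the β-glucan receptor dectin-1, fell at least 2.61-fold to below background. Under median scaling 1 member, Tlr2, was called higher and 6 lower. Of 12 Fc receptors and signalling partners 3 rose and 2 fell, including the inhibitory receptor Fcgr2b (0.90 ± 0.09) and the phospholipase Plcg2 (0.75 ± 0.06). The count of falls was 1 without any TGF-β array or untreated replicate 2, 5 or 6, and Clec4a3 (-0.65) is the fall that held in all these fits.

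Genes for antigen presentation did not follow 1 direction. Cd74, which chaperones MHC class II molecules, read 7.12, 7.12 and 6.96 against 8.83, 8.91 and 9.08 and fell by 1.86 (adjusted p = 4.45e-08), while 1 of its other probes gave -2.08 and a dim one was not called. Cd40, a costimulatory receptor, read 9.16, 9.29 and 9.04 against 7.91, 8.15 and 8.34 and rose by 1.02 ± 0.19. Cd274, the checkpoint ligand PD-L1, read 8.84, 8.91 and 8.81 against 7.71, 7.95 and 8.12 and rose by 0.91 ± 0.18. No group overlapped in these genes, and of 8 class II and costimulation genes 3 rose and 1 fell. Of 16 class I genes 5 were called higher and 3 lower, with no rise called under median scaling, 3 rises without any TGF-β array and 1 fall without TGF-β replicate 2. The immunoproteasome subunit Psmb10 fell by 0.59 in that list. Of 15 interferon-stimulated genes 2 rose and 4 fell, near the shares of 19.7% and 19.1% over all genes. Isg15, above background on 5 of 6 untreated arrays and on no treated array, was at least 1.27-fold lower. Oasl1 was lower by 0.67. Among 6 complement genes 1 rise and 1 fall were called, also near those shares. C1qc, a chain of C1q, went from below background to 6.41, 6.37 and 6.67, at least 1.72-fold higher, and Cfp fell. A second member was called higher in that list without TGF-β replicate 1.

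Markers of the IL-4 type of activation went both ways. Of 10 tested genes 4 were called higher (2 without TGF-β replicate 2 or 3) and 3 lower. All genes gave 19.7% and 19.1%, and the median change of the list was 0.01. The lectin gene Mgl2 read 8.09, 7.92 and 8.10 against 8.96, 9.09 and 9.16 and fell by 1.05 (adjusted p = 1.25e-07), and Clec10a fell by 0.87. Socs2, a suppressor of cytokine signalling, read 7.91, 7.77 and 7.81 against 6.40, 6.52 and 6.78 and rose by 1.27 ± 0.19. All 3 genes kept the groups apart. Arg1, the arginase of alternatively activated macrophages and chosen after its values were seen, was below background with and without TGF-β and read 7.86 to 8.20 after IL-4.

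Most tested genes for cholesterol efflux and targets of the liver X receptors (LXR), which sense oxidised cholesterol, were called higher. Of 11 tested genes 9 were higher and 1 lower (19.7% and 19.1% of all genes), with a median change of 0.59. Under median scaling 5 were higher with a median of 0.37. The listed genes Abca1, Mylip and Pltp were below background on all 9 arrays and were not tested. Apoc1, an apolipoprotein of lipoprotein particles, read 10.21, 10.22 and 10.37 against 7.13, 7.28 and 7.44 and rose by 2.98 ± 0.08 (adjusted p = 4.01e-13). Apoe, the main lipid carrier made by microglia and astrocytes, read 14.17, 14.08 and 14.22 against 12.72, 13.10 and 13.16 and rose by 1.12 ± 0.10 (adjusted p = 1.01e-06). Apoc2, the activator of lipoprotein lipase, read 6.78, 6.42 and 6.66 against 5.53, 5.73 and 6.27 and rose by 0.79 ± 0.15. With Apoc4, these 4 apolipoprotein genes had no overlap between groups, and they lie next to each other on mouse chromosome 7 with 1 other gene between them. Abca9, a lipid transporter gene, was the exception with 6.71, 6.84 and 6.63 against 7.55, 8.09 and 8.16 and a fall of 1.24. Of 18 genes for cholesterol and fatty acid synthesis 8 fell and 2 were called higher, or 1 without TGF-β replicate 1 or 2 or untreated replicate 3 or 4. Srebf1, a sterol regulatory factor that LXR induces, read 10.01, 9.65 and 9.82 against 8.39, 8.48 and 8.65 and rose by 1.32 ± 0.11. Elovl6, a fatty acid elongase, read 6.52, 6.80 and 6.47 against 7.80, 7.87 and 8.15 and fell by 1.32, and Mvk, a kinase of the mevalonate pathway, fell by 0.58, all without overlap. Of 23 lysosomal genes 11 rose and 1 fell, but only 2 rose under median scaling. Those 2 were the cathepsins Ctss (0.87 ± 0.16) and Ctsd (0.81 ± 0.13), and the cathepsin Ctsc fell by 0.54.

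Several genes for amino acid supply fell, in a list that went both ways. In the list of unfolded protein response and amino acid stress genes, 10 of 22 fell and 8 rose, with a median change of 0.06, and under median scaling 10 fell, no rise was called and the median was -0.11. The rises numbered 4 without TGF-β replicate 1 and 5 without TGF-β replicate 3 or untreated replicate 6. Mthfd2, a mitochondrial enzyme of folate metabolism, read 10.25, 10.24 and 10.05 against 11.82, 11.95 and 11.97 and fell by 1.75 (adjusted p = 7.35e-11). Asns, asparagine synthetase, read 10.56, 10.61 and 10.58 against 11.95, 12.07 and 12.11 and fell by 1.47 (adjusted p = 7.42e-10). Slc7a11, the cystine transporter, read 8.16, 8.53 and 8.14 against 9.69, 9.82 and 10.01 and fell by 1.57. In all 3 every TGF-β array lay below every untreated array. Shmt2, mitochondrial serine hydroxymethyltransferase, fell by 1.15, and its dimmer probe was not called. Psat1, of serine synthesis, read 12.17, 12.16 and 12.25 against 13.28, 13.30 and 13.44 and changed by -1.13 ± 0.07. Atf4, the factor that activates these genes, read 11.86, 11.93 and 11.91 against 12.52, 12.65 and 12.89 and changed by -0.76 ± 0.08, and Ddit3, another target of it, by -1.06 ± 0.12. Psat1, Atf4 and Ddit3 were chosen after their values were seen. Of 17 genes of the oxidative stress factor NRF2, heme and iron 8 fell and 2 rose. Gstm1, a glutathione transferase, read 11.64, 11.57 and 11.66 against 12.27, 12.33 and 12.41 and fell by 0.71, and Blvrb, a biliverdin reductase, fell by 0.55. Slc40a1, the iron exporter ferroportin, read 11.87, 11.92 and 11.68 against 10.41, 10.50 and 10.61 and rose by 1.32 ± 0.16. Its rise stood alone among the members called under median scaling in that direction.

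Proliferation genes fell by modest amounts. Of 16 mitosis genes 15 fell and none rose (19.1% and 19.7% of all genes), with a median change of -0.64, or -0.86 under median scaling. Aurka, a mitotic kinase, read 10.38, 10.14 and 10.35 against 11.14, 11.23 and 11.40 and fell by 0.95 (adjusted p = 1.57e-07). Cdc20, an activator of the anaphase-promoting complex, read 10.41, 10.55 and 10.36 against 11.22, 11.27 and 11.50 and fell by 0.85 (adjusted p = 4.16e-07). Plk1, another mitotic kinase, read 9.99, 10.19 and 10.02 against 10.67, 10.82 and 11.02 and fell by 0.76. No array overlapped for these 3 genes. Of 27 genes for the G1/S transition and DNA replication 15 fell and 1 was called higher, and the single rise was lost without TGF-β replicate 1 or 3 or untreated replicate 2, 4 or 6. Ccnd1, cyclin D1, read 10.99, 11.09 and 10.97 against 11.74, 11.77 and 11.90 and fell by 0.78 (adjusted p = 7.83e-07), and Tyms, thymidylate synthase, fell by 0.71. Inhibitors of cyclin-dependent kinases and arrest genes went both ways. Cdkn1c fell at least 1.46-fold to below background, Cdkn2d fell by 0.48, and of the 12 genes of that list 3 rose (1 without TGF-β replicate 3) and 3 fell, with Btg1 (0.67 ± 0.09) as the rise that held throughout.

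Among genes of mitochondrial metabolism some fell by small amounts and none rose. Of 17 genes of the TCA cycle and its entry 11 fell and none rose, with a median of -0.34, or -0.53 under median scaling. Of 27 genes of oxidative phosphorylation 10 fell and none rose, with a median of -0.13, or -0.30 under median scaling, and cyclic loess scaling left 7 falls. Pdhb, of pyruvate dehydrogenase, read 10.81, 10.85 and 11.04 against 11.06, 11.46 and 11.60 and fell by 0.50 (adjusted p = 0.00118). Idh3a, of isocitrate dehydrogenase, read 8.13, 8.24 and 8.07 against 8.51, 8.66 and 8.71 and fell by 0.49. Sdhb, of succinate dehydrogenase, read 10.23, 10.24 and 10.26 against 10.42, 10.61 and 10.71 and fell by 0.33. These changes were under 1.5-fold, yet no treated array reached the untreated range. In glycolysis the glucose transporter Slc2a1 read 11.67, 11.61 and 11.62 against 10.53, 10.74 and 10.86 and rose by 0.93 ± 0.07, and the hexokinase Hk3 fell by 0.74. That list held 5 rises, of which 1, Slc2a1, was called under median scaling, and 1 fall, which became 2 without TGF-β replicate 1 or untreated replicate 4.

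Immediate-early genes, which respond to growth factor signals within minutes to hours, were higher with TGF-β at 24 h. Of 17 tested 10 rose and 1 fell, with a median of 0.86, and 9 rose under median scaling. The median was 0.29 without background correction. Fos, an AP-1 subunit, read 10.62, 10.66 and 10.62 against 8.51, 8.67 and 8.89 and rose by 1.94 ± 0.33 (adjusted p = 0.000283). Egr3, a zinc finger factor above background on 4 of 6 untreated arrays, read 7.45, 7.63 and 7.20 against 5.61, 5.87 and 6.04 and rose by 1.58 ± 0.14 (adjusted p = 4.55e-07). Dusp6, a phosphatase that restrains ERK kinases, read 8.87, 9.002 and 8.70 against 7.14, 7.44 and 7.76 and rose by 1.42 ± 0.11. The groups did not overlap in any of them. Dusp2 fell by 0.75. Of 15 subunits and feedback regulators of NF-κB 5 rose and none fell (19.7% and 19.1% of all genes). Their median of 0.11 became -0.07 under median scaling. Nfkbiz, an atypical inhibitor, read 8.83, 8.85 and 8.83 against 7.72, 7.88 and 7.97 and rose by 0.98 ± 0.23. Tnfaip3, the ubiquitin-editing enzyme A20, read 8.79, 8.85 and 8.79 against 7.72, 8.06 and 8.12 and rose by 0.80 ± 0.13. Both kept the groups apart.

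Adhesion and matrix genes showed some of the larger rises outside the first set. Of 18 integrins and adhesion genes 7 rose and 3 fell (19.7% and 19.1% of all genes). Itga5, the fibronectin receptor subunit, read 11.36, 11.19 and 11.24 against 9.37, 9.57 and 9.71 and rose by 1.72 ± 0.08 (adjusted p = 6.11e-10). Itgb7, a subunit of integrins for mucosal and endothelial ligands, read 8.23, 8.31 and 8.37 against 9.43, 9.54 and 9.72 and fell by 1.26 (adjusted p = 5.45e-08). Its partner Itga4 fell at least 1.37-fold to below background. The subunits thus went in opposite directions without overlap. Of 13 proteases and inhibitors of the matrix 6 rose and 3 fell (1 without TGF-β replicate 3). Plau, urokinase, read 9.83, 9.82 and 9.56 against 7.42, 7.81 and 8.30 and rose by 1.89 ± 0.20 (adjusted p = 3.00e-06). Mmp14, a membrane metalloprotease that can release latent TGF-β, went from below background to 6.22, 6.03 and 6.29, at least 1.4-fold higher. Adamts1, a protease of proteoglycans, read 7.17, 6.64 and 7.03 against 7.59, 7.78 and 7.96 and fell by 0.85. Of 5 measured matrix proteins 3 rose, Olfml3, Col4a1 (1.06 ± 0.14) and Ecm1 (0.78 ± 0.10), while 20 of the 26 listed were above background on fewer than 3 arrays. Olfml3 was tested only because the TGF-β arrays were above background, which favours a rise in this count. Acta2, the smooth muscle actin that TGF-β raises in fibroblasts, read 5.96, 5.49 and 5.63 against 6.16, 6.23 and 6.48 and fell by 0.59.

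The remaining lists were small or balanced. Of 9 growth factor genes 3 rose, with Pdgfb at 1.01 ± 0.10 and Pdgfa at 0.87 ± 0.11, and 2 fell, of which 1, Hbegf (at least 1.5-fold lower), held without TGF-β replicate 2 or 3 or untreated replicates 1 to 5. Of 5 eicosanoid genes 2 were called higher and 1 lower, and without any 1 of the 9 arrays the rises came down to 1, Alox5ap (0.72 ± 0.07), which presents arachidonic acid to 5-lipoxygenase. Of 5 purinergic genes P2ry6 rose and 2 were called lower, or 1 without any TGF-β array or untreated replicate 2, 4 or 6. Of 18 cytosolic ribosomal protein genes 1 was called higher and 1 lower, with 0 to 2 in each direction over the arrays left out, and their median change was 0.01. Several genes named above have further probes that were dimmer and not called, namely Abca9, Adamts1, Cd40, Tgfbr2, Bmpr2, Rapgef5, Pdhb and Oasl1.

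**Figure D4:**
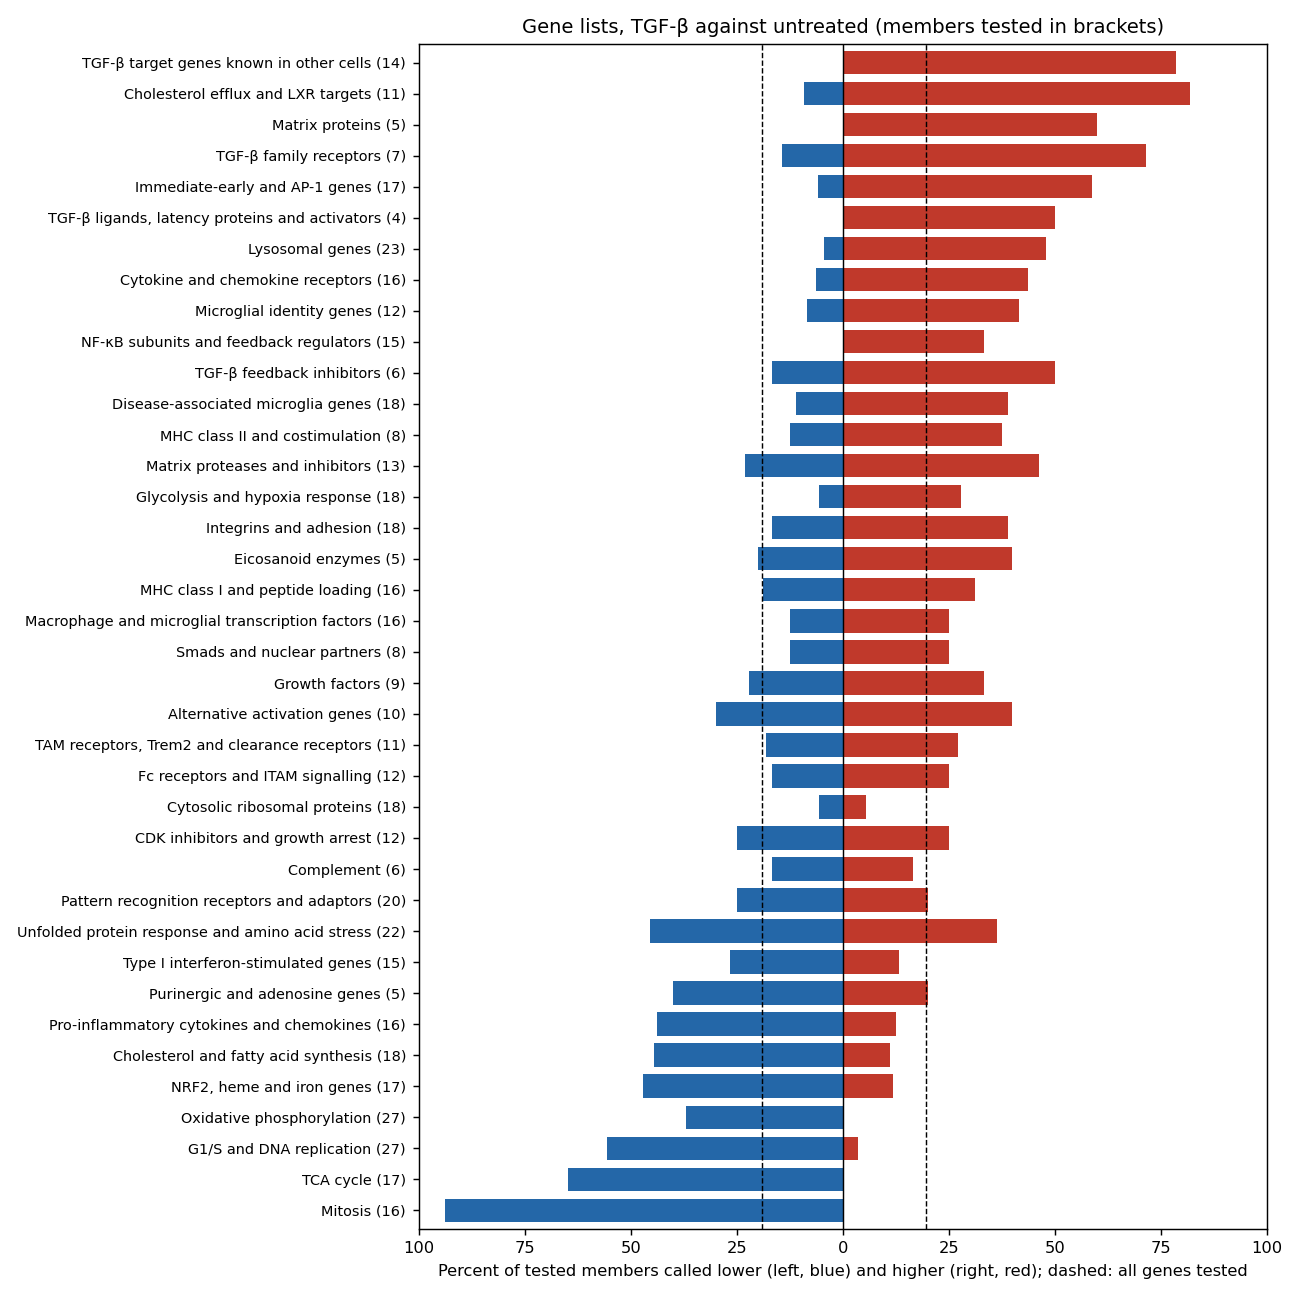
Percent of the tested members of each of 38 gene lists that were called higher with TGF-β (right, red) or lower (left, blue), with the number of members in brackets and dashed lines at 19.7% and 19.1%, the shares over all genes. Mitosis and TCA cycle genes reach farthest to the left, and TGF-β targets and LXR targets farthest to the right.

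The changes with TGF-β can be set beside the levels after the other stimuli, which were compared with the TGF-β arrays in the same fit. TGF-β and IL-4 arrays differed at 2606 genes (30.5%), 1422 of them higher with TGF-β (16.6%), and TGF-β and LPS/IFN-γ arrays at 4766 (55.7%), 2772 higher with TGF-β (32.4%). The largest rises and falls were chosen by values of the same TGF-β arrays, which favours calls in their direction here. All 15 genes with the largest rises were called higher with TGF-β than with IL-4, and 14 than with LPS/IFN-γ. The exception was Tent5c, which read 9.65, 9.94 and 9.70 with TGF-β, 9.56 to 10.91 with LPS/IFN-γ and 6.57 to 6.76 with IL-4, a difference from LPS/IFN-γ of -0.30 (95% interval -0.82 to 0.22, adjusted p = 0.321). With IL-4 Skil read 5.89 to 6.20, and with LPS/IFN-γ it read 7.40 to 7.86, below its level with TGF-β on every array. Olfml3 was below background with both other stimuli, at 4.49 to 4.87 and 4.39 to 4.56, and so was Tmem119, at 4.83 to 4.96 and 4.82 to 5.45. Sgk1 read 6.39 to 8.12 with LPS/IFN-γ and 5.07 to 5.29 with IL-4, again below the TGF-β arrays.

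Among the 15 largest falls, chosen by the same TGF-β arrays, 14 genes were called lower with TGF-β than with IL-4 and 14 than with LPS/IFN-γ. Ptpn22 was the exception against LPS/IFN-γ, with 7.95, 8.19 and 7.87 and 7.97 to 8.19, a difference of -0.05 (95% interval -0.29 to 0.19, adjusted p = 0.708). St3gal6 was the exception against IL-4, and since it was below background on all arrays of both groups its difference was not measured. With IL-4 Gas7 read 10.27 to 10.33, and with LPS/IFN-γ it read 10.83 to 11.11, both far above the TGF-β arrays. Cd74 read 11.49 to 11.72 and 11.86 to 12.63, so that it was lower with TGF-β and higher with both other stimuli than in untreated cells (8.83 to 9.08). For Asns the IL-4 arrays read 11.69 to 11.87 and the LPS/IFN-γ arrays 12.93 to 13.23, above its level with TGF-β in each case. For Tlr2 the IL-4 arrays read 9.50 to 9.76 and the LPS/IFN-γ arrays 12.07 to 12.53, the latter close to the TGF-β arrays with a difference of -0.08 (95% interval -0.37 to 0.22). Tnf, although higher with TGF-β than without, read 12.36 to 13.01 with LPS/IFN-γ, far above the TGF-β arrays.

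**Figure D5:**
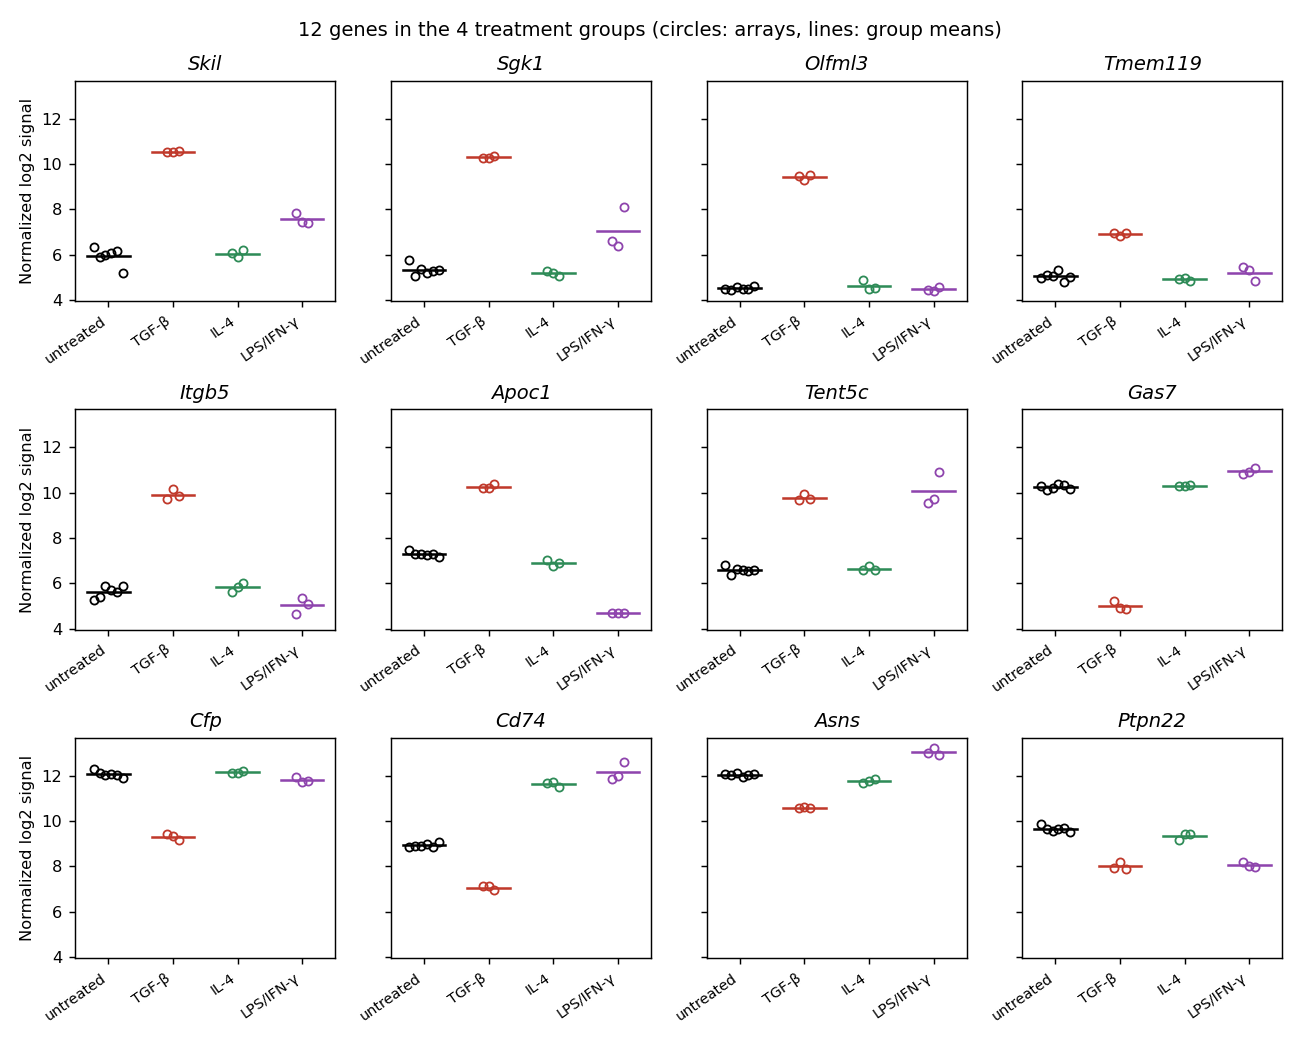
Normalized log2 signal (vertical axis) of 12 genes on every array of the 4 groups, with 1 point per array. Skil, Sgk1, Olfml3, Tmem119, Itgb5 and Apoc1 stand highest with TGF-β, Tent5c is high with TGF-β and with LPS/IFN-γ, and Gas7, Cfp, Cd74 and Asns stand lowest with TGF-β.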

How the data were processed

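Probe intensity and a detection p-value per probe were deposited by the authors for 15 arrays, without background correction or normalization as far as the values show. The authors also deposited a table of log2 values, whose median was 7.14 on each array and which correlated at 0.9995 or more with the log2 of the quantile-normalized intensity. The gap between them had a median size of 0.02 and reached 0.62 to 0.90 on single arrays. Taken probe by probe, 99.97% of the squared gap was shared by the arrays of a chip. That table is thus on the same scale and direction with a shift per probe and chip, and it served as an alternative. Partek is named without a version in the submitters' processing notes.

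Intensities were background-corrected with limma's nec (version 3.58.1, R 4.3.3), with negative controls estimated from detection p-values and an offset of 16, then quantile-normalized and log2-transformed. Probes were kept when detected at p under 0.01 on at least 3 arrays (15434 of 45281) and assigned to 1 current gene symbol (13302), which 2132 were not. In the platform annotation 34885 probes had 1 symbol, 18 several and 10378 none. The probe with the highest mean stood for a gene, and 3293 of the 8553 genes had more than 1. All 15 arrays were fitted with 4 group means (lmFit, eBayes), and two-sided p-values were adjusted by Benjamini-Hochberg over all genes. The procedure was tested on simulated data.

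Where a group was below background on all its arrays, the fold is a lower bound against the dimmest detected signal on each array. Precision is limited by the number of arrays, with a standard error of 0.10 for the median gene. Treated replicates lay 1 to a chip, and the untreated arrays 1, 3 and 2 to the 3 chips. Same-numbered arrays correlated at 0.17, -0.09 and -0.09 in their deviations from the group means. TGF-β arrays and the mean of the untreated arrays on their chip correlated at 0.17, 0.02 and 0.22 in these deviations. So few values cannot decide whether the numbers pair the arrays. Genes named were the 15 largest called rises and the 15 largest falls without overlap, a fixed set of TGF-β and microglial genes, and up to 4 called members at each end of a pathway list. The comparison, the members and the lists were chosen with earlier results of these data known.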

Additional observations from a re-analysis of the deposited data

Results flagged for a closer look

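Among the 6 untreated arrays, single values stood apart from the other 5 for 11 of the 155 genes named above, by a gap of more than 0.625 of the group's range, which chance gives for about 1 in 20 groups. Untreated replicate 1 read 12.72 for Apoe and 9.54 for Tgfb1, below the other arrays, and 10.33 for Trim33, above them. Untreated replicate 3 stood low for Ccl5 (5.82) and Tnfaip3 (7.72) and high for Cdc20 (11.50) and Mertk (8.11). Untreated replicate 5 was low for Mthfd2 (11.82) and high for Slc10a6 (8.19). Untreated replicate 2 was high for Bhlhe40 (12.43), and untreated replicate 6 was low for Skil (5.18). The calls of these genes did not change when the array in question was left out.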

How the results depend on the processing

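The count of genes called between TGF-β and untreated arrays, 3318, lay between 2593 and 3990 under other background, scaling, filter and model choices apart from the blocks, and between 2708 and 3303 when each of the 9 arrays was left out. With chip as a block it was 3374. Whether the numbers pair the arrays is not known, and with the replicate number as a block 2583 genes were called (1327 higher, 1256 lower). A 2-fold minimum left 234 calls. Calls of at least 2-fold change numbered 97 without background correction, 127 with an offset of 50, 97 in the authors' log2 values and 149 among probes above background on all 15 arrays, the last of which has fewer genes. Under median scaling 522 genes were called higher, and 1293 differed between TGF-β and IL-4. For these counts the cause was not tested. Cyclic loess scaling made 56.7% of calls rises. Of 140 called genes named above, 133 kept their sign and call in every alternative run. The exceptions were Acvr1, Bmpr2, Eng, Id1, Tgfbr2 and Tgif1 under median scaling and Smad2, which also lost its call under cyclic loess (adjusted p = 0.0632) and with no filter on dim probes (0.0656). No named gene that was called reversed. Of the genes not called, Smad3 was called under median scaling, Smad5 with the mean of its probes, Lpl in 4 alternatives and Ptprc without TGF-β replicate 3. Dim probes limit what the arrays show, since 64 tested genes were below background on all untreated arrays and 167 on all TGF-β arrays only.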
